A study of Equus caballus with 25 samples.

Results

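SERPINA1, F3 (tissue factor) and PLAT (tissue plasminogen activator) are genes of protease control, clotting and clot removal, and they were followed here through 6 transcripts in cells from equine airway lavage. The members were taken as the transcripts that the published lists of the study pair with these symbols, 4 for SERPINA1, 1 for F3 and 1 for PLAT. They are 6 of the 7238 transcripts on the array, and all 6 were among the 4930 tested after a filter on low values. Each of them is in the study's lists of transcripts changed in severe and in mild to moderate asthma against control, so that differences from control chose the members and are given below as a description with no p, and counts past the threshold of the fit are printed in those contrasts with nothing read from them. Symbols come only from those lists, because neither the array files nor the reference table pairs the identifiers with symbols or positions, and no positions are given.

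Total RNA from cells of bronchoalveolar lavage (BAL) fluid was measured with 1 one-color array per horse in 25 horses. CTRL stands for the 7 clinically healthy horses labeled Control, all standardbred. MEA stands for the 10 horses with mild to moderate asthma, labeled IAD, and SEA for the 8 horses with severe asthma, labeled RAO. Both asthma groups held standardbred and saddle horses, and the SEA horses were older, so that disease, breed and, for SEA, age cannot be told apart. The comparisons with CTRL ask what differs in each form of the disease, and the comparison of SEA with MEA asks what differs between the forms.

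SERPINA1 encodes alpha-1-antitrypsin, an inhibitor of neutrophil elastase that the liver secretes into plasma and that airway epithelium and phagocytes also make. F3 encodes tissue factor, the cell surface receptor for coagulation factor VII that starts the extrinsic pathway of clotting. PLAT encodes tissue plasminogen activator, a protease that turns plasminogen into plasmin, which dissolves fibrin.

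The 4 SERPINA1 probes are shown because their sequences decide how far their values can count as separate measurements. They form pair A, ENSECAT00000012318 and ENSECAT00000021122, and pair B, ENSECAT00000015356 and ENSECAT00000015430. Capitals mark the bases that the probes of a pair share.

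ENSECAT00000012318: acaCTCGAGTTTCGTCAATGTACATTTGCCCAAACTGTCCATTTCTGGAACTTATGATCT
ENSECAT00000021122: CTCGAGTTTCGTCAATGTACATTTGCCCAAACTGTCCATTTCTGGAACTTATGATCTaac
ENSECAT00000015356: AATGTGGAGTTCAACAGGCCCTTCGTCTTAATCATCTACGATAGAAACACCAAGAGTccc
ENSECAT00000015430: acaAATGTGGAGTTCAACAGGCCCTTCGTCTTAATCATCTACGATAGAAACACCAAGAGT

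Within each pair the probes of 60 bases were the same but for a shift of 3 bases, and shared a run of 57. Between the pairs the longest shared run was 6 bases. The 4 transcripts were therefore read through 2 target sequences, and the probes of a pair are near copies of one measurement rather than independent ones. The GC content of the 4 probes ran from 40.0% to 45.0%. No probe of another gene shared a run of 20 bases with any of the 6 members, whereas 1137 of the 7238 transcripts (15.7%) shared such a run with some other transcript.

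F3 was detected in every horse, and SERPINA1 and PLAT lay near the limit of detection. Each transcript had 2 spots on an array, and a spot counted as detected when the scanner software called it well above the local background. Both F3 spots were detected on all 25 arrays. For pair B, both spots of ENSECAT00000015356 were detected in 7 of 7 CTRL, 9 of 10 MEA and 5 of 8 SEA horses, and both spots of ENSECAT00000015430 in 7 of 7, 9 of 10 and 6 of 8. Pair A was detected least often. ENSECAT00000012318 had both spots detected in 6 of 7 CTRL, 2 of 10 MEA and 4 of 8 SEA horses, and ENSECAT00000021122 in 4 of 7, 1 of 10 and 4 of 8. PLAT had both spots detected in 6 of 7 CTRL, 5 of 10 MEA and 5 of 8 SEA horses. No member was undetected throughout a group.

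**Figure D1:**
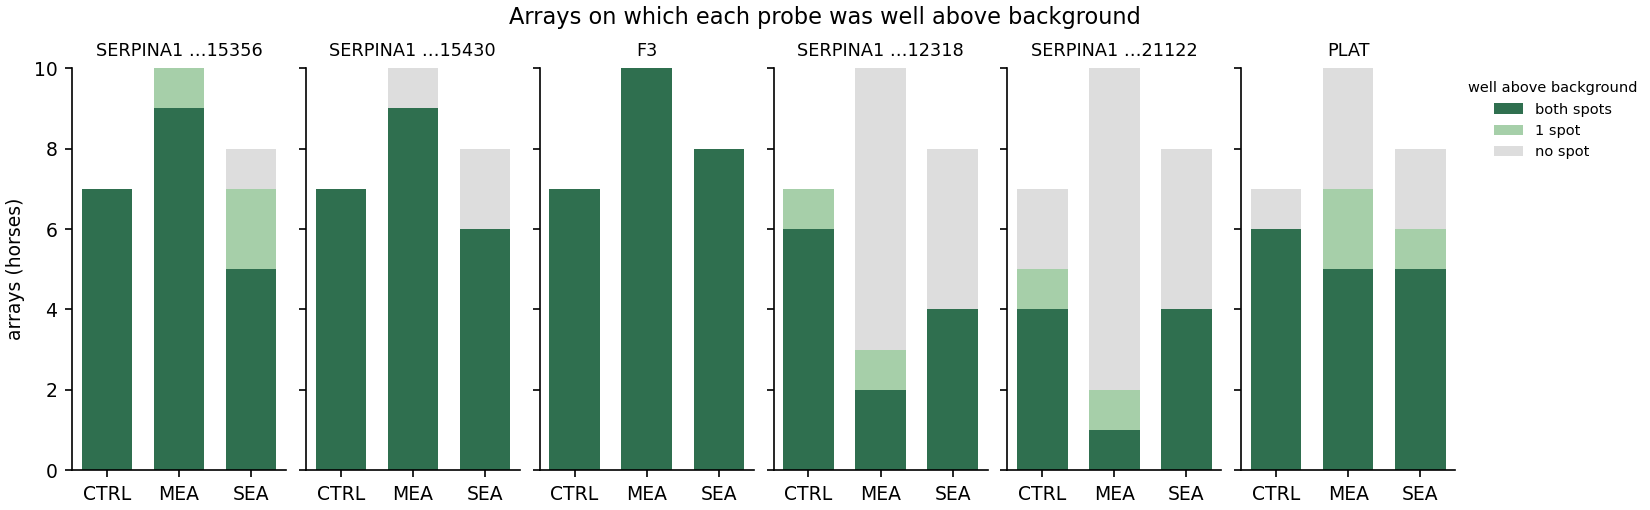
Number of horses in each group in which both spots, 1 spot or no spot of a transcript was well above background, as stacked bars. F3 had both spots detected in all 25 horses, whereas ENSECAT00000021122 had both in 1 of 10 MEA horses.

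Among the tested transcripts, 0.0203% were detected on fewer arrays than ENSECAT00000021122 and 0.325% on fewer than ENSECAT00000012318. The share was 2.39% for PLAT, 10.6% for ENSECAT00000015356 and 13.9% for ENSECAT00000015430, and 33% for F3. The filter left out transcripts with a log2 intensity below 4.5 on at least 19 of the 25 arrays. Both probes of pair A were below 4.5 on 18 arrays and so passed by 1 array, mainly through CTRL. ENSECAT00000012318 was below 4.5 in 2 of 7 CTRL, 9 of 10 MEA and 7 of 8 SEA horses, and ENSECAT00000021122 in 3 of 7, 9 of 10 and 6 of 8. PLAT was below 4.5 on 16 arrays, ENSECAT00000015430 on 13, ENSECAT00000015356 on 11 and F3 on 1. The share of all spots well above background on an array ran from 63.5% to 90.4% in CTRL (median 77.7%), 58.2% to 84.1% in MEA (median 74.0%) and 66.6% to 90.8% in SEA (median 72.8%).

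Pair B of SERPINA1 was highest in CTRL. Levels are normalized log2 intensities, given as the lowest, median and highest horse, and the levels of the members are compared between horses only. ENSECAT00000015356 measured 4.59, 5.96 and 6.51 in CTRL, 3.79, 4.46 and 5.78 in MEA, and 1.64, 4.16 and 6.64 in SEA. All 10 MEA horses and 7 of 8 SEA horses were below the CTRL median, but the groups overlapped, with 6 MEA and 5 SEA horses below the lowest CTRL horse. ENSECAT00000015430 measured 4.39, 5.69 and 6.17 in CTRL, 3.15, 4.22 and 5.58 in MEA, and 1.81, 4.01 and 6.54 in SEA. The same counts were below the CTRL median, and 7 MEA and 5 SEA horses were below the lowest CTRL horse.

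Pair A showed the same order of CTRL over the asthma groups at levels mostly under 4.5 in diseased horses. ENSECAT00000012318 measured 2.97, 5.23 and 5.68 in CTRL, 0.62, 2.54 and 4.98 in MEA, and 1.59, 2.80 and 6.28 in SEA. It was below the CTRL median in 10 of 10 MEA and 7 of 8 SEA horses, and below the lowest CTRL horse in 7 MEA and 4 SEA horses. ENSECAT00000021122 measured 2.88, 4.58 and 5.78 in CTRL, 0.34, 2.93 and 5.11 in MEA, and 2.25, 2.86 and 6.28 in SEA. Here 9 of 10 MEA and 7 of 8 SEA horses were below the CTRL median, and 5 MEA and 4 SEA horses below the lowest CTRL horse.

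Single horses stood at the top of all 4 SERPINA1 probes. SEA replicate 7 was the highest SEA horse for each of them, at 6.28, 6.64, 6.54 and 6.28 for ENSECAT00000012318, ENSECAT00000015356, ENSECAT00000015430 and ENSECAT00000021122, and it exceeded every CTRL horse. MEA replicate 9 was the highest MEA horse for all 4, CTRL replicate 3 the highest CTRL horse and CTRL replicate 5 the lowest CTRL horse. The lowest SEA horse was replicate 4 for 3 of the probes and replicate 1 for ENSECAT00000015356, and the lowest MEA horse was replicate 5 for pair A and replicate 1 for pair B.

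F3 was the member with the widest spread between SEA horses. Its levels were 7.86, 9.57 and 10.67 in CTRL, 6.34, 8.00 and 9.04 in MEA, and 3.17, 7.42 and 9.28 in SEA. Every MEA and SEA horse was below the CTRL median, and 4 horses of each asthma group were below the lowest CTRL horse. SEA replicates 1 and 3 stood lowest at 3.17 and 5.13, while SEA replicates 5 and 7 reached 9.28 and 9.27, within the CTRL range. Between horses of a group the SD came to 0.89 for CTRL, 0.87 for MEA and 2.1 for SEA.

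PLAT differed least between the groups. It measured 3.31, 4.97 and 6.37 in CTRL, 2.5, 4.12 and 5.26 in MEA, and 2.19, 4.46 and 5.11 in SEA. Although 9 of 10 MEA and 7 of 8 SEA horses were below the CTRL median, 2 of each asthma group were below the lowest CTRL horse. The lowest horse was replicate 1 in all 3 groups.

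**Figure D2:**
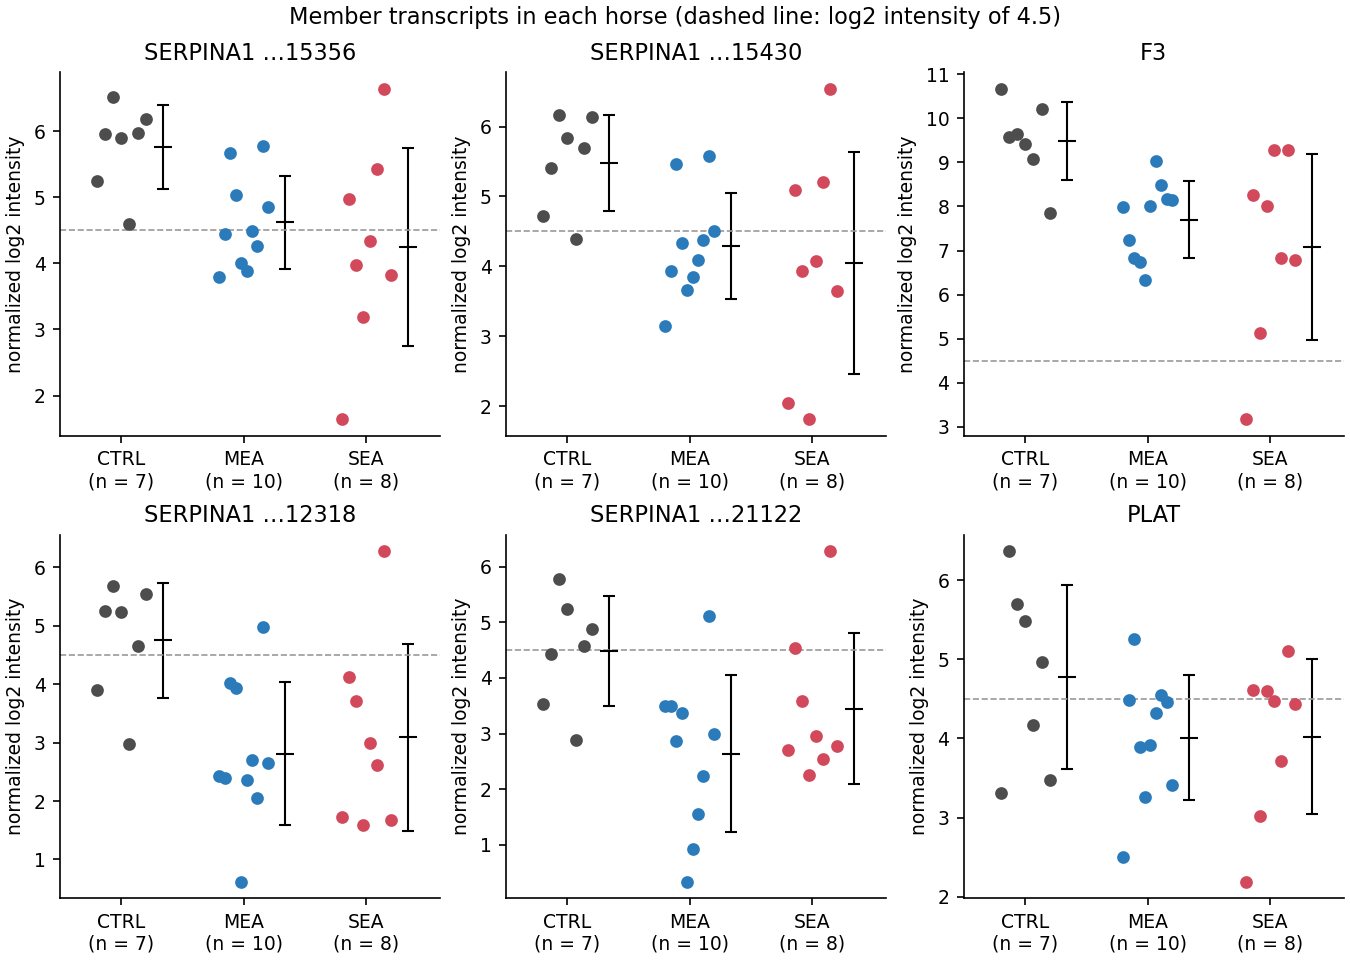
Normalized log2 intensity of each transcript in each horse by group, 1 point per horse, with the group mean and SD, and a dashed line at 4.5. All F3 points of MEA and SEA are below the CTRL median of 9.57, and SEA replicate 7 is the top SEA point of all 4 SERPINA1 probes.

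All 6 transcripts had lower means in SEA and in MEA than in CTRL, by amounts that chose them. Differences are on the log2 scale with the SE of the fit. F3 was lower in SEA by a difference of -2.40 (SE 0.78, n = 8 and 7), a 5.28-fold lower intensity, and in MEA by -1.79 (SE 0.40, n = 10 and 7), a 3.46-fold lower intensity. In a BAL sample, fewer cells of a type and less RNA per cell cannot be told apart. Pair B was lower in SEA by -1.51 (SE 0.56) for ENSECAT00000015356 and -1.43 (SE 0.59) for ENSECAT00000015430, and in MEA by -1.14 (SE 0.32) and -1.19 (SE 0.34). Pair A was lower in SEA by -1.66 (SE 0.64) for ENSECAT00000012318 and -1.02 (SE 0.57) for ENSECAT00000021122, and in MEA by -1.94 (SE 0.51) and -1.84 (SE 0.56). The sizes for pair A are not exact, as no spot was detected in 7 and 8 of 10 MEA horses and 4 of 8 SEA horses. With values raised to the dimmest detected level of each array, an alternative chosen after seeing the data, they were -1.07 and -0.79 in SEA and -1.25 and -1.05 in MEA. PLAT differed by -0.76 (SE 0.51) in SEA and -0.78 (SE 0.44) in MEA. Both comparisons used the same CTRL horses, so their values are set side by side and not related to each other.

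At limma's adjusted p below 0.1 with a fold change of at least 1.5, 4 of 6 transcripts passed between SEA and CTRL and 5 of 6 between MEA and CTRL. ENSECAT00000021122 was short of it in SEA, and PLAT in both. Of all 4930 tested transcripts, 32.7% passed between SEA and CTRL and 16.7% passed as lower in SEA, and 9.78% passed between MEA and CTRL and 6.53% as lower in MEA. The count of 482 between MEA and CTRL is unstable, from 156 without CTRL replicate 1 to 750 without MEA replicate 7, and 183 with slide as a block. Nothing is read from the members' counts, since these contrasts chose them and pair A passed the filter mainly through CTRL.

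**Figure D3:**
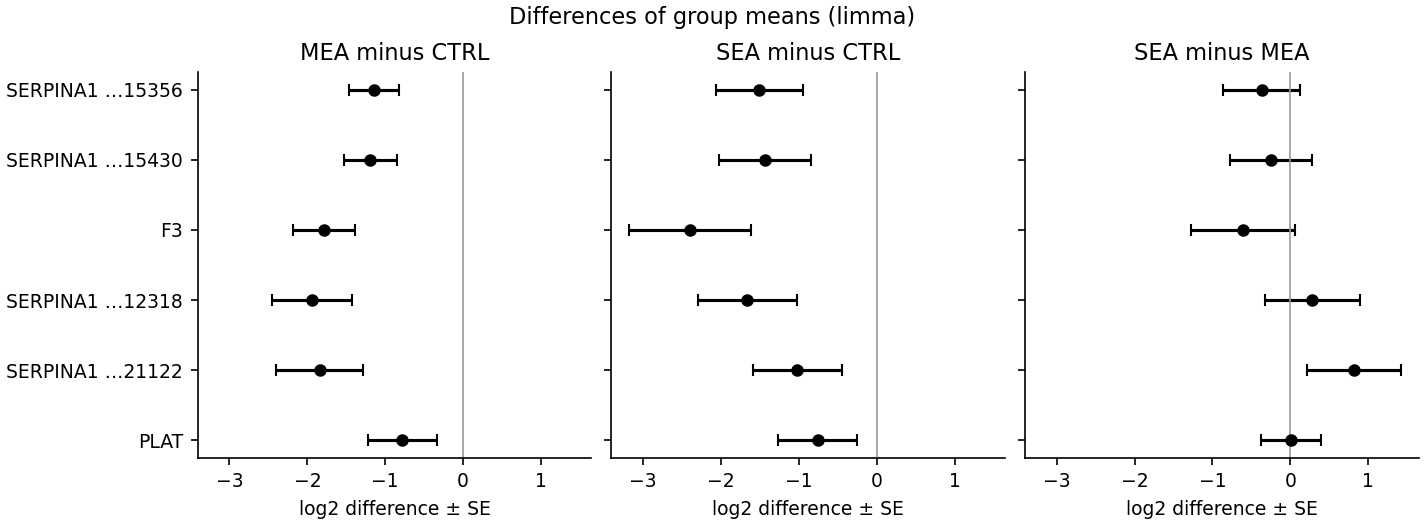
Log2 difference between groups for each transcript, with bars of 1 SE, for SEA minus CTRL, MEA minus CTRL and SEA minus MEA. Both sets of differences from CTRL are below 0 for all 6 transcripts, from -2.40 to -0.76 in SEA and -1.94 to -0.78 in MEA, and those between SEA and MEA lie on both sides of 0.

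The arrays were spread over 4 slides that each held all 3 groups. Differences from CTRL chose the members, so their values by slide are a description only, and the 4 SERPINA1 probes read 2 targets. Several slide values rest on single horses. SEA had 1 horse on slide 1 and 1 on slide 4, MEA 1 on slide 3 and CTRL 1 on slide 4. All 4 SERPINA1 probes were lower in SEA and in MEA than in CTRL on 4 of 4 slides, with slide differences from -3.96 to -0.56 in SEA and -2.35 to -0.72 in MEA for ENSECAT00000015356. F3 was lower in SEA on 4 of 4 slides, from -6.95 to -1.08, and in MEA on 3 of 4, with 0.28 on slide 4, where 5 MEA horses were set against 1 CTRL horse. PLAT was lower on 3 of 4 slides in either comparison, with values from -2.66 to 0.96 in SEA and -1.42 to 0.92 in MEA. With slide as a block in the fit, F3 differed from CTRL by -2.65 in SEA and -1.79 in MEA, ENSECAT00000015356 by -1.73 and -1.35, and PLAT by -0.92 and -0.79.

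The size of the SERPINA1 and PLAT differences depended on how values near background were treated. A background correction that adds a constant to every intensity (normexp with an offset of 50) brought the SERPINA1 differences to between -0.32 and -0.15 in SEA and between -0.31 and -0.23 in MEA, with none past the threshold. Under it PLAT differed by -0.13 and -0.14. F3, with both spots detected on all 25 arrays but SEA replicate 1 at 3.17, near the floor of its array (2.59), differed by -1.54 in SEA and -1.29 in MEA and stayed past the threshold in both.

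The contrast of SEA with MEA did not itself choose the members. All 6 were listed as changed from the same CTRL horses in both groups, so it is not free of that choice. Between SEA and MEA, 0 of 6 passed with limma and 0 of 6 with the rank sum test. An unadjusted limma p under 0.05 was found for 0 of 6, and for 1021 of all 4930 tested transcripts. In this comparison 2.23% of the 4930 tested transcripts passed, 0.791% as lower in SEA and 1.44% as higher. This count of 110 is unstable, from 2 without SEA replicate 2 to 559 without MEA replicate 3, 279 with all 25 arrays in 1 fit, and 0 with slide as a block or scaling to the 75th percentile. F3 was lower in SEA by -0.61 (SE 0.67, limma adjusted p = 0.619), and 2 SE on either side run from -1.95 to 0.73. Without SEA replicate 1 the F3 difference was -0.05. Pair B differed by -0.37 (SE 0.50, limma adjusted p = 0.692, -1.36 to 0.62) and -0.25 (SE 0.53, limma adjusted p = 0.812, -1.30 to 0.80). Pair A had the opposite sign, at 0.28 (SE 0.61, limma adjusted p = 0.823, -0.95 to 1.5) for ENSECAT00000012318 and 0.82 (SE 0.60, limma adjusted p = 0.446, -0.39 to 2.02) for ENSECAT00000021122. PLAT differed by 0.01 (SE 0.39, limma adjusted p = 0.983, -0.77 to 0.80). These intervals leave room for differences of more than 1.5-fold in at least 1 direction for every member, so that the arrays do not show the groups to be alike. These signs rest on single horses in both pairs, except that ENSECAT00000021122 stayed above 0 (0.41 to 1.09) with each horse left out. Nothing is read from that sign, since no spot of ENSECAT00000021122 was detected in 8 of 10 MEA and 4 of 8 SEA horses. Over the other alternatives its difference went down to 0.08, and the sizes for pair A are not exact here either. ENSECAT00000012318 turned to -0.18 without SEA replicate 7, ENSECAT00000015430 to 0.07 without SEA replicate 4, and ENSECAT00000015356 came to 0.00 without SEA replicate 1. Scaling to the 75th percentile turned ENSECAT00000012318 to -0.24 and moved PLAT to -0.44, and PLAT ran from -0.15 (without MEA replicate 1) to 0.28 (without SEA replicate 1). In the order of mean levels CTRL was highest for each transcript, and MEA and SEA did not differ beyond their spread.

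Whether the 4 SERPINA1 probes gave the same difference between SEA and MEA was tested on the difference between 2 probes in each horse, with exact two-sided permutation tests over 6 probe pairs. None of the 6 passed at an adjusted p below 0.1, where the adjustment took in 12 further differences from CTRL, which are only described here. The lowest p was for ENSECAT00000015356 minus ENSECAT00000021122, at -1.19 (SE 0.53, exact permutation p = 0.0406, adjusted 0.183). Every test but that within pair B uses a pair A probe, often at levels not above background. For ENSECAT00000021122 no spot was detected in 8 of 10 MEA and 4 of 8 SEA horses. Those tests therefore cannot decide whether the probes agree. The 2 probes of pair B gave nearly equal differences, with a gap of -0.12 (SE 0.20) for SEA and MEA (exact permutation p = 0.551), -0.08 (SE 0.20) for SEA and CTRL and 0.05 (SE 0.11) for MEA and CTRL. Among the gaps in differences from CTRL, ENSECAT00000012318 minus ENSECAT00000015356 was -0.80 (SE 0.27) in MEA, and within pair A ENSECAT00000012318 minus ENSECAT00000021122 was -0.64 (SE 0.22) in SEA. With slide as a block, an alternative chosen after seeing the data, 4 of the 18 passed, of which 3 set ENSECAT00000021122 against another probe between SEA and MEA. Nothing is read from these 3, since ENSECAT00000021122 had no spot detected in 8 of 10 MEA and 4 of 8 SEA horses, and in 11 of 20 MEA spots the scanner software had put a surrogate in place of the signal. With scaling to the 75th percentile 1 of 18 passed, between MEA and CTRL.

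The duplicate spots of a transcript lay closer together where both were detected than on the other arrays. The median gap where both were detected was 0.19 for ENSECAT00000012318 (12 arrays), 0.19 for ENSECAT00000015356 (21), 0.21 for ENSECAT00000015430 (22), 0.22 for ENSECAT00000021122 (9), 0.30 for F3 (25) and 0.15 for PLAT (16). On the other arrays it was 0.31, 0.83, 1.72 and 0.32 for the SERPINA1 probes in that order and 0.51 for PLAT. Over all transcripts and arrays the median was 0.21. Single arrays had wider gaps, up to 3.03 for ENSECAT00000015430 in MEA replicate 2 and 2.41 for PLAT in MEA replicate 4.

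The 4 SERPINA1 probes rose and fell together from horse to horse within the groups. Covariation was computed over all 25 horses after each group's mean was subtracted, with permutation tests of 100000 resamples within groups, for 45 relations, 15 between members and 30 with marker lists. Adjusted p values run over the 45. Of these, 21 passed at 0.1, which were 10 of the member pairs and 11 of the list relations, and r was positive in 15 of 15 member pairs. The 10 include all 6 relations among SERPINA1 probes, 2 of them between near copies. No share over all transcript pairs was computed, so nothing is read from these counts. The smallest permutation p that the resamples can give is 1e-05. Because the probes of a pair are near copies of one measurement, a high r within a pair was largely given by their sequences. It is printed as a description with no p. The probes of pair B had r = 0.95 (rho 0.96) and those of pair A r = 0.87 (rho 0.79). Without the 2 horses farthest from the median these were 0.93 and 0.77. For pair A, no spot was detected on 11 (ENSECAT00000012318) and 14 (ENSECAT00000021122) of the 25 arrays. Much of its r is therefore over values not above background. Slide 2 is the only slide on which at least 6 horses had another horse of their group (7 of 7), while slides 1, 3 and 4 had 4, 5 and 5 such horses, so slide 1 is given no r and the r of slides 3 and 4 is a description only. Within slides 2, 3 and 4 pair B had r of 0.90, 0.98 and 0.96 and pair A 0.98, 0.99 and 0.83, and after slide means were subtracted r was 0.92 and 0.87. The 2 target sequences also moved together, although each relation across pairs uses a pair A probe and carries the same limit of detection. The 4 relations across pairs had r from 0.66 to 0.82 and rho from 0.65 to 0.81, with permutation p from 1e-05 to 0.00039 and adjusted p from 9e-05 to 0.00219. They were 0.53 to 0.71 without the 2 horses, 0.68 to 0.90 within slide 2, 0.71 to 0.89 within slide 3, 0.78 to 0.95 within slide 4 and 0.70 to 0.80 after slide means were subtracted. The share of spots well above background on an array had r between -0.18 and 0.23 with the 6 members, and adjusting for it left the 6 SERPINA1 relations between 0.73 and 0.94.

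**Figure D4:**
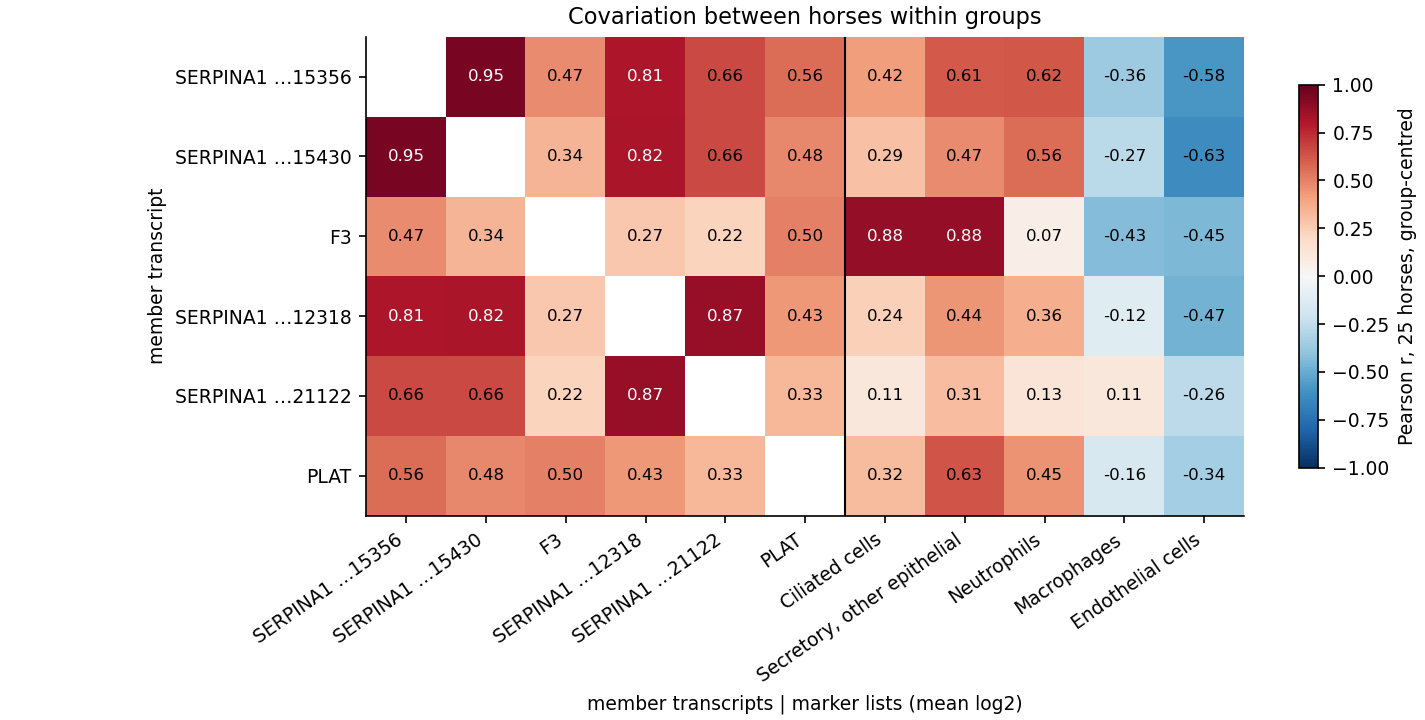
Pearson r over 25 horses after subtraction of group means, between the 6 transcripts and between each transcript and the mean level of 5 marker lists, as a colored grid. The cells between SERPINA1 probes hold r from 0.66 to 0.95, and F3 stands out with 0.88 for both epithelial lists.

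F3 was not shown to move with SERPINA1. Its r with the 4 probes ran from 0.22 to 0.47 and its rho from 0.06 to 0.16 (permutation p from 0.0911 to 0.344, adjusted p from 0.153 to 0.397), and without the 2 farthest horses r ran from -0.07 to 0.34. Within slides these values went in both directions, -0.14 to 0.15 on slide 2, 0.53 to 0.86 on slide 3 and -0.75 to -0.31 on slide 4, and with slide means subtracted they were 0.16 to 0.36. F3 and PLAT had r = 0.50 (rho 0.37, permutation p = 0.013, adjusted 0.0366), with 0.79, 0.76 and -0.53 within slides 2, 3 and 4 and 0.44 after slide means were subtracted. The relation rests on 2 horses, since r was 0.18 without them, and its rho did not pass (adjusted p = 0.182). By group, r between F3 and PLAT was 0.95 in SEA, 0.16 in CTRL and 0.02 in MEA, a contrast between groups that was not tested.

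PLAT moved with some of the SERPINA1 probes, more weakly than these did with each other. It had r = 0.56 with ENSECAT00000015356 (rho 0.48, permutation p = 0.00354, adjusted 0.0133), 0.37 without the 2 farthest horses, 0.39, 0.63 and 0.39 within slides 2, 3 and 4 and 0.47 with slide means subtracted. With ENSECAT00000015430 r was 0.48 (rho 0.50, permutation p = 0.0188, adjusted 0.047) and 0.58 without 2 horses, with 0.00, 0.75 and 0.50 within slides 2, 3 and 4, and it no longer passed with slide means subtracted (r = 0.35, adjusted p = 0.181). For ENSECAT00000012318 r was 0.43 (rho 0.45, permutation p = 0.0357, adjusted 0.0765), 0.35 without 2 horses and 0.19, 0.95 and 0.39 within slides 2, 3 and 4, and it did not pass with slide means subtracted either (r = 0.35, adjusted p = 0.181). With ENSECAT00000021122 r was 0.33 (rho 0.37, permutation p = 0.107, adjusted 0.166), 0.18 without 2 horses, 0.31, 0.98 and 0.00 within slides 2, 3 and 4 and 0.31 with slide means subtracted.

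Markers of the cell types that lavage can hold were listed to set beside these levels. Because symbols exist only for transcripts in the study's lists, called in the same horses, counts over any list are not independent evidence of its direction. Ciliated cell markers (16 of 21 listed symbols found, 18 transcripts) were mostly lower in asthma, as 17 of 18 passed as lower in SEA with a median difference of -2.39, and 14 of 18 in MEA with a median of -1.78. Over all tested transcripts the medians were -0.01 and 0.03, and 16.0% passed as higher in SEA and 3.25% as higher in MEA, beside the 16.7% and 6.53% that passed as lower. The mean level of the list ran from 8.58 to 10.29 in CTRL, 5.46 to 9.83 in MEA and 3.80 to 8.83 in SEA. Its marker with the highest intensity, which also depends on the probe, was TPPP3, a microtubule protein of cilia, which was lower by -2.10 (SE 0.50) in SEA and -1.56 (SE 0.52) in MEA, where its call was lost with slide as a block, in the replicate block, with no filter and with normexp. Markers of secretory and other epithelial cells (14 of 20 symbols, 15 transcripts) passed as lower in 14 of 15 for SEA, with a median of -2.01, and in 5 of 15 for MEA, with a median of -0.95 (12 of 15 and 4 of 15 with the rank sum test). Their mean level ran from 7.97 to 9.67 in CTRL, 6.51 to 9.25 in MEA and 4.87 to 8.44 in SEA, and ALDH1A1 had the highest intensity.

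Neutrophil markers (8 of 14 symbols, 8 transcripts) passed as higher in 7 of 8 for SEA, with a median difference of 1.63 (4 of 8 with the rank sum test, which lost FCAR and MMP9 among others). In MEA 0 of 8 passed as higher with limma, with a median of 0.37, and 1 of 8 passed with the rank sum test. An unadjusted limma p under 0.05 was found there for 1 of 8, beside 1129 of all 4930 tested transcripts. The mean level of the neutrophil markers ran from 7.47 to 10.54 in CTRL, 8.72 to 12.33 in MEA and 8.37 to 12.21 in SEA, and FCAR, an Fc receptor for IgA, had the highest intensity. Macrophage markers (7 of 13 symbols, 7 of 8 transcripts tested, STAB1 not) passed as higher in 3 of 7 for SEA (median 0.49) and 2 of 7 for MEA (median 0.83). Their mean level ran from 7.83 to 9.43 in CTRL, 8.71 to 9.88 in MEA and 8.83 to 9.80 in SEA, and CD68, highest in intensity, averaged 14.42 in CTRL and was present in all groups, with its SEA call lost with quantile normalization and in the replicate block. MARCO, a scavenger receptor of macrophages, differed the other way in SEA, by -1.12 (SE 0.58), short of the threshold, and it passed as lower with slide as a block (-1.31). Endothelial markers (4 of 8 symbols, 5 of 6 transcripts tested, ESAM not) passed as higher in 5 of 5 for SEA (median 1.52), which are 3 genes, since FLT1 has 3 transcripts, and 1 of 5 for MEA (median 0.67), with mean levels from 3.80 to 4.95 in CTRL, 4.16 to 6.18 in MEA and 4.66 to 6.90 in SEA and ENG highest in intensity. Under alternatives ENG lost its SEA call with normexp and in the replicate block and FLT1 ENSECAT00000028864 with normexp, and the only MEA call, FLT1 ENSECAT00000023490, was lost with quantile normalization, normexp, no filter, the rank sum test and the replicate block. VWF, which endothelial cells also make and which was placed in the clotting list, had lower means in SEA, by -1.10 (SE 0.70) against CTRL and -1.26 (SE 0.54) against MEA, and passed in neither. Of the fibroblast markers (3 of 8 symbols), 2 transcripts were tested and DCN was not. With limma or the rank sum test 0 passed in any comparison. An unadjusted limma p under 0.05 was found for 1, in SEA, beside 1982 of all 4930 tested transcripts. The list was not used for covariation. Its median of 0.01 in SEA lies between THY1 at -1.92 (SE 0.98) and VCAN at 1.94 (SE 0.89), which passed as higher under 4 of the alternatives, and its median in MEA was -0.12. DCN, too low to be tested, had means of 3.15 in SEA, 2.97 in MEA and 4.57 in CTRL. Between SEA and MEA 0 members of these 6 lists passed with limma or with the rank sum test. An unadjusted limma p under 0.05 was found in 5 of 15 secretory, 5 of 8 neutrophil, 3 of 7 macrophage and 3 of 5 endothelial markers and in 0 of 18 ciliated and 0 of 2 fibroblast markers, with median differences of -0.97, 1.09, -0.04, 0.85, -0.46 and 0.13 in that order. Of all 4930 tested transcripts, 1021 had such a p in this comparison.

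F3 followed the epithelial markers from horse to horse. Its r with the mean of the ciliated list was 0.88 (rho 0.88, permutation p = 1e-05, adjusted 9e-05), and r was 0.75 without the 2 farthest horses, 0.95, 0.96 and 0.84 within slides 2, 3 and 4 and 0.89 with slide means subtracted. The sign held in each group, at 0.73 in CTRL, 0.71 in MEA and 0.99 in SEA. With secretory and other epithelial markers r was also 0.88 (rho 0.77, permutation p = 1e-05, adjusted 9e-05), with 0.75 without 2 horses, 0.86, 0.84 and 0.44 within slides 2, 3 and 4, 0.87 with slide means subtracted, and 0.70, 0.70 and 0.98 by group. With macrophage markers it was -0.43 (rho -0.45, permutation p = 0.0176, adjusted 0.0465), -0.26 without 2 horses, on which it partly rests, and -0.38 with slide means subtracted. Its sign did not hold, with -0.83, 0.82 and 0.17 within slides 2, 3 and 4 and -0.76, 0.00 and -0.70 in CTRL, MEA and SEA. With neutrophil markers the r of F3 was 0.07 (rho -0.17, permutation p = 0.766, adjusted 0.766) and -0.45 without 2 horses. Within slides 2, 3 and 4 it was -0.56, -0.80 and -0.81, and by group -0.59 in CTRL, -0.49 in MEA and 0.56 in SEA. The part of epithelial cell number in the lower F3 of asthma was not tested.

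**Figure D5:**
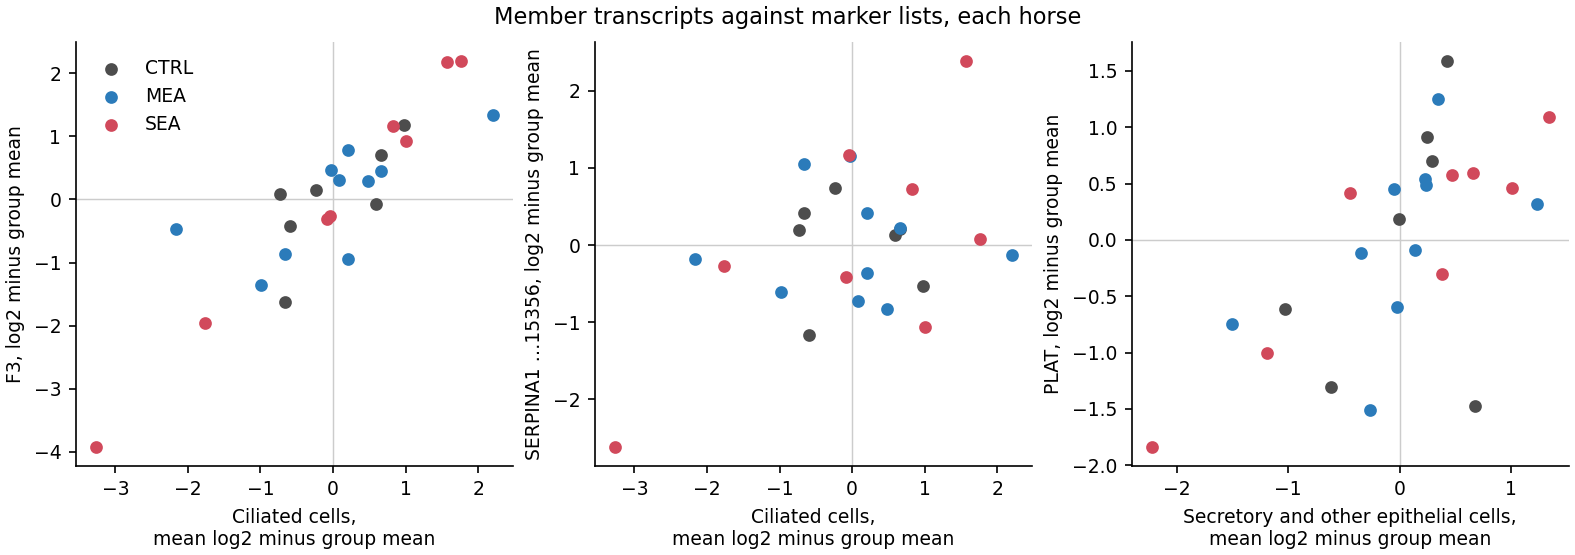
Log2 levels after subtraction of group means, 1 point per horse, for F3 and ciliated markers, SERPINA1 ENSECAT00000015356 and ciliated markers, and PLAT and secretory markers. F3 lies along a line with r = 0.88, PLAT less closely with 0.63, and ENSECAT00000015356 has 0.42.

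SERPINA1 was not shown to follow the ciliated markers. For ENSECAT00000015356 r was 0.42 (rho 0.15, permutation p = 0.111, adjusted 0.166) and -0.03 without the 2 farthest horses, with 0.33, 0.41 and -0.63 within slides 2, 3 and 4 and 0.27 with slide means subtracted, and the other 3 probes had r from 0.11 to 0.29. With the secretory list ENSECAT00000015356 had r = 0.61 (rho 0.37, permutation p = 0.00905, adjusted 0.0271), but 0.28 without 2 horses, so the relation rests on them, with 0.51, 0.87 and -0.43 within slides 2, 3 and 4 and 0.54 with slide means subtracted, and its rho did not pass (adjusted p = 0.19). ENSECAT00000012318, ENSECAT00000015430 and ENSECAT00000021122 did not pass with this list (r = 0.44, 0.47 and 0.31, adjusted p = 0.105, 0.115 and 0.224).

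Pair B had higher levels in horses with higher neutrophil markers, although the sign turned within slides 2 and 3. The r of ENSECAT00000015356 with these markers was 0.62 (rho 0.47, permutation p = 0.00188, adjusted 0.00846), 0.51 without 2 horses, -0.51, -0.19 and 0.48 within slides 2, 3 and 4 and 0.51 with slide means subtracted. For ENSECAT00000015430 it was 0.56 (rho 0.40, permutation p = 0.00589, adjusted 0.0204), 0.62 without 2 horses, -0.19, -0.28 and 0.45 within slides 2, 3 and 4 and 0.44 with slide means subtracted, but its rho did not pass (adjusted p = 0.142). Pair A had 0.36 for ENSECAT00000012318 (adjusted p = 0.157) and 0.13 for ENSECAT00000021122 (adjusted p = 0.584). Between the group means the signs were opposite, since neutrophil markers were higher and SERPINA1 lower in SEA than in CTRL.

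The mean of the endothelial list ran against 3 of the 4 SERPINA1 probes. Of its 5 tested transcripts 3 are FLT1, most were at low levels, and VWF is not among them. Which cells carry this mean was not tested. The r was -0.63 for ENSECAT00000015430 (rho -0.56, permutation p = 0.00331, adjusted 0.0133), with -0.48 without 2 horses, -0.85, -0.79 and 0.14 within slides 2, 3 and 4 and -0.51 with slide means subtracted (adjusted p = 0.0722). It was -0.58 for ENSECAT00000015356 (rho -0.50, permutation p = 0.00807, adjusted 0.0259), with -0.41 without 2 horses and -0.69, -0.87 and 0.00 within slides 2, 3 and 4, and it no longer passed with slide means subtracted (-0.45, adjusted p = 0.11). For ENSECAT00000012318 it was -0.47 (rho -0.33, permutation p = 0.0334, adjusted 0.0753), with -0.29 without 2 horses and -0.38, -0.47 and -0.02 within slides 2, 3 and 4, and it did not pass with slide means subtracted either (-0.37, adjusted p = 0.216), nor did its rho (adjusted p = 0.229). ENSECAT00000021122 had r = -0.26 (rho -0.15, permutation p = 0.256, adjusted 0.33) and 0.09 without 2 horses, with -0.30, -0.34 and 0.53 within slides 2, 3 and 4 and -0.19 with slide means subtracted. By group, the r of ENSECAT00000012318, ENSECAT00000015356 and ENSECAT00000015430 was -0.79, -0.81 and -0.81 in SEA, -0.24, -0.38 and -0.51 in MEA and 0.02, 0.00 and -0.12 in CTRL. These values were farthest from 0 in SEA, a contrast between groups that was not tested.

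Over all horses, PLAT followed the secretory list and was not shown to follow the ciliated one. In SEA, PLAT had r = 0.91 with the secretory and 0.95 with the ciliated list. In CTRL PLAT had 0.36 and -0.21 and in MEA 0.53 and -0.19, a contrast between groups that was not tested. Its r with secretory and other epithelial markers was 0.63 (rho 0.62, permutation p = 0.0009, adjusted 0.0045), 0.53 without 2 horses, 0.96, 0.90 and 0.19 within slides 2, 3 and 4 and 0.60 with slide means subtracted. With ciliated markers it was 0.32 (rho 0.20, permutation p = 0.121, adjusted 0.176), 0.15 without 2 horses, 0.92, 0.54 and -0.48 within slides 2, 3 and 4 and 0.21 with slide means subtracted. With neutrophil markers it was 0.45 (rho 0.28, permutation p = 0.0288, adjusted 0.0683), 0.33 without 2 horses, -0.58, -0.22 and 0.71 within slides 2, 3 and 4 and 0.36 with slide means subtracted, where the call was lost (adjusted p = 0.216), and its rho did not pass (adjusted p = 0.306).

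The tested transcripts most like each member were found by the same r over 25 horses, as a description with no p. For F3 they were PRKCZ, an atypical protein kinase C of cell polarity, at 0.94, and RNF128, PLEKHA5, GALNTL4 and HOMER2 at 0.93 each. All 5 had lower means in SEA than in CTRL, from -2.70 (SE 0.87) for RNF128 to -1.68 (SE 0.74) for PLEKHA5. For PLAT they were EPB41L1 at 0.75, the unconventional myosin MYO6 at 0.75, EYA1 at 0.74, ABLIM1 at 0.71 and OTX1 at 0.69. With normexp the r of EYA1 fell to 0.38, that of ABLIM1 to 0.49 and that of OTX1 to 0.46.

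The 3 transcripts most like each SERPINA1 probe had lower r than those of F3, and only CSNK1G2, a kinase, was shared between probes. For pair B they were PNRC1 at 0.74, the chemokine CCL20 at 0.74 and ENSECAT00000001537 at 0.73 for ENSECAT00000015356, and ENSECAT00000012953 at 0.76, CSNK1G2 at 0.74 and IGSF6 at 0.73 for ENSECAT00000015430. For pair A they were CSNK1G2 at 0.72, the adenosine receptor ADORA2A at 0.67 and ENSECAT00000006290 at 0.66 for ENSECAT00000012318, and the defensin DEFB4B at 0.70, ENSECAT00000009117 at 0.59 and ENSECAT00000022813 at 0.59 for ENSECAT00000021122. Of these 11 transcripts 3 passed as higher in SEA than in CTRL, where 16.0% of all tested transcripts did, and nothing is read from this count. Their direction was opposite to that of SERPINA1, PNRC1 by 1.80 (SE 0.39), ADORA2A by 1.56 (SE 0.57) and CSNK1G2 by 0.83 (SE 0.32). The other 8 did not pass, 6 with higher means in SEA and 2 with lower ones, ENSECAT00000022813 by -1.93 (SE 0.86) and DEFB4B by -0.56 (SE 0.44). Over the alternatives the r of these neighbors ran from 0.45 to 0.85.

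Other genes of clotting and fibrin removal, outside the members, moved in both directions in SEA. Of the 47 symbols listed, 9 were found with 11 transcripts, all tested, of which 5 passed as higher and 3 as lower in SEA than in CTRL, where 16.0% and 16.7% of all tested transcripts did. Symbols were found only among transcripts that the study called in the same horses, so these shares are no like background for the list. The median difference was -0.85, the value of 1 of the 3 transcripts of ITGA2B. The largest was ENSECAT00000003487, of uncertain identity, higher by 2.88 (SE 0.49). PLAUR, the receptor for urokinase, was higher by 2.41 (SE 0.58) and coagulation factor F12 by 1.36 (SE 0.35). Annexin ANXA5, which binds phospholipids that clotting uses, was higher by 0.71 (SE 0.20). The 3 lower transcripts were those of ITGA2B, a platelet integrin, at -1.16 (SE 0.34), -1.14 (SE 0.34) and -0.85 (SE 0.37). F2RL2, SERPING1 and VWF did not pass, at -1.39, -1.22 and -1.10, but F2RL2 passed as lower under 4 of the alternatives (75th percentile scaling, the rank sum test, all 25 arrays in 1 fit and the replicate block) and SERPING1 under 2 (slide as a block and all 25 arrays in 1 fit). The call of the ITGA2B transcript at -0.85 was lost under 8 of the alternatives, and those of F12 and of the other ITGA2B transcripts with normexp.

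In MEA, 1 of the 11 passed as higher than CTRL, F12 at 1.09 (SE 0.32), and 1 as lower, ITGA2B ENSECAT00000022348 at -1.08 (SE 0.37), with a median of 0.00, where 3.25% and 6.53% of all tested transcripts did. Both calls were lost with slide as a block, in the replicate block and with normexp, and that of ITGA2B also with scaling to the 75th percentile, quantile normalization and changes of the filter. Between SEA and MEA, 1 of the 11 passed, ENSECAT00000003487, higher in SEA by 2.59 (SE 0.55, limma adjusted p = 0.0542), where 1.44% of all tested transcripts passed as higher. ANXA5, at 0.70 (SE 0.21), did not pass but did so under 3 of the alternatives. The published lists give ENSECAT00000003487 as SERPINB2 in one place and SERPINB10 in another, so its identity is uncertain. Its call was lost with scaling to the 75th percentile (adjusted p = 0.131), with slide as a block (0.27) and in the replicate block (0.276), and the adjusted p ran from 0.0194 to 0.276 over the alternatives.

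Serpins and other protease inhibitors also split. Their symbols too were found only among transcripts that the study called in the same horses, so nothing is read from the counts. Of 14 symbols or families listed, 8 symbols were found, and 7 of the 8 transcripts were tested, with SERPINA3 too low. In SEA 3 passed as higher than CTRL and 3 as lower, with a median of -0.89, beside 16.0% and 16.7% of all tested transcripts. In MEA 0 of 7 passed as higher with limma or the rank sum test and 2 as lower, with a median of -0.07, beside 3.25% and 6.53%. The metalloprotease inhibitor TIMP1 was higher in SEA by 1.32 (SE 0.42), and the thrombin inhibitor SERPINE2 by 0.93 (SE 0.36). SPINT1 and SPINT2, membrane inhibitors of serine proteases in epithelia, were lower by -2.02 (SE 0.56) and -2.09 (SE 0.59) in SEA and by -1.61 (SE 0.37) and -1.25 (SE 0.39) in MEA. The SPINT2 call in MEA was lost with slide as a block, in the replicate block and with all 25 arrays in 1 fit, and the SERPINE2 call in SEA with the rank sum test. SERPINE2, SERPING1 and ENSECAT00000003487 are in both lists, and ENSECAT00000003487 is the 1 of 7 that passed between SEA and MEA.

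Plasma proteins that the liver secretes, as it does alpha-1-antitrypsin, were listed beside SERPINA1. Of 13 symbols, 8 were found and 4 tested, while SERPINA3, APCS, C9 and ALB were too low. Of these, APCS had means of 4.10 in SEA and 2.27 in CTRL and C9 of 4.11 and 2.73, while SERPINA3 (2.35 and 3.12) and ALB (2.70 and 4.42) were lower in SEA. Symbols were found only among transcripts that the study called in the same horses. The share over all tested transcripts is therefore no like background, and nothing is read from counts over this list. All 4 tested passed as lower in SEA than in CTRL, beside 16.7% of all tested transcripts, CP (ceruloplasmin) by -1.73 (SE 0.71), RBP4 by -1.75 (SE 0.73), complement C6 by -2.56 (SE 0.84) and ITIH4 by -0.89 (SE 0.28), with a median of -1.74. In MEA 2 of the 4 passed as lower, beside 6.53%, CP by -1.43 (SE 0.48) and RBP4 by -1.52 (SE 0.46), with a median of -1.06. Between SEA and MEA 0 of 4 passed with limma or the rank sum test, with a median of -0.56. An unadjusted limma p under 0.05 was found there for 2 of 4, beside 1021 of all 4930 tested transcripts. The calls of CP, RBP4 and C6 in SEA were lost in the replicate block, those of CP and ITIH4 also with normexp and those of CP and RBP4 also with no filter, and that of RBP4 also with the rank sum test. In MEA the call of RBP4 was lost with slide as a block and with all 25 arrays in 1 fit, and that of CP with both of these and with 75th percentile scaling, normexp, no filter, the rank sum test and the replicate block. ITIH4 passed as lower between SEA and MEA with all 25 arrays in 1 fit.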

How the data were processed

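The authors deposited, for each of the 25 arrays, spot intensity from the scanner software, background-subtracted and not normalized between arrays, and 1 table of intensity normalized with cyclic loess, linear in scale. That first deposited intensity was put on a log2 scale and normalized by cyclic loess (span 0.7, 3 iterations) over 25 arrays in R 4.3.3 with limma 3.58.1. Spots flagged as outliers (165 of 361900) were left out and the 2 spots averaged. Transcripts below 4.5 on at least 19 arrays were left out, which left 4930 of 7238. Each comparison was fitted with limma on the arrays of its 2 groups, and a transcript passed when its p after Benjamini-Hochberg adjustment was under 0.1 and its groups differed 1.5-fold or more. Python 3.11.15, numpy 2.4.6, pandas 2.3.3 and scipy 1.17.1 gave permutation tests, two-sided, exact for probe agreement and with 100000 resamples within groups for covariation. The per-array r between these values and log2 of the deposited table was 0.9977 to 0.9999. The number of arrays limits the precision.

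The members and lists were chosen with earlier results of these data known. Named genes were the members, all members of the clotting, inhibitor and liver lists, the transcripts most like each member (3 for each SERPINA1 probe, 5 for F3 and PLAT), and the brightest or defining markers. 1 gene of the clotting and inhibitor lists is not reported here and was left out of their counts and medians. Steps were tested on simulated data. Alternatives were 75th percentile scaling, quantile normalization, normexp, the authors' normalized table, no filter, a filter on detection, the rank sum test, limma with trend and robust settings, all 25 arrays in 1 fit, slide as a block, a replicate block, and each horse left out. Chosen after seeing the data were a floor at the dimmest detected level, slide as a block for probe agreement, and adjustment of covariation for the share of detected spots. Figures were drawn with matplotlib 3.10.9.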

Additional observations from a re-analysis of the deposited data

How the results depend on the processing

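All 6 transcripts kept a lower mean in SEA and in MEA than in CTRL under every alternative that gave a value; ENSECAT00000021122 was not tested under 75th percentile scaling or quantile normalization. Calls against CTRL, where the members were chosen, are tracked as a description. Signal over background limits SERPINA1 and PLAT. Where a call changed, the cause was not tested, except that normexp adds an offset of 50 and so shrinks differences at low intensity.

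With normexp 874 transcripts passed between SEA and CTRL (1612 reported), 157 between MEA and CTRL (482 reported) and 8 between SEA and MEA (110 reported). Under it the SEA minus CTRL differences no longer past the threshold were -0.24 for ENSECAT00000012318, -0.31 for ENSECAT00000015356 and -0.32 for ENSECAT00000015430. Those of MEA minus CTRL were -0.26 for ENSECAT00000012318, -0.28 for ENSECAT00000015356, -0.31 for ENSECAT00000015430 and -0.23 for ENSECAT00000021122.

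With slide as a block 183 transcripts passed between MEA and CTRL, SEA and MEA differed in 0 (659 at an unadjusted limma p under 0.05), ENSECAT00000021122 lost its MEA call at -2.04, and 4 probe agreement tests passed in place of 0. In the replicate block, which treats equal replicate numbers as paired although the labels do not pair horses, 138 passed between MEA and CTRL, SEA and MEA differed in 0 (638 at an unadjusted limma p under 0.05), and F3 lost its SEA call at -2.36.

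Between SEA and MEA 0 passed with 75th percentile scaling (992 at an unadjusted limma p under 0.05), 39 with quantile normalization, 25 with the rank sum test and 279 with all 25 arrays in 1 fit. With 75th percentile scaling the MEA calls of ENSECAT00000015356 (-1.08) and ENSECAT00000015430 (-1.11) were lost, 1 probe agreement test passed, and PLAT between SEA and MEA was -0.44. With all 25 arrays in 1 fit the MEA calls of ENSECAT00000015356 (-1.14), ENSECAT00000015430 (-1.19) and F3 (-1.79) were lost. With the rank sum test the SEA calls of ENSECAT00000012318 (-1.66), ENSECAT00000015356 (-1.51) and ENSECAT00000015430 (-1.43) were lost, and without a filter that of ENSECAT00000015430 (-1.43). Values raised to the dimmest detected level, chosen after seeing the data, ended the SEA call of ENSECAT00000012318 (-1.07) and the MEA call of ENSECAT00000021122 (-1.05).

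With each horse left out in turn, the count between MEA and CTRL ran from 156 (without CTRL replicate 1) to 750 (without MEA replicate 7), and that between SEA and MEA from 2 (without SEA replicate 2) to 559 (without MEA replicate 3). In SEA minus CTRL, ENSECAT00000012318 ran from -2.12 (without SEA replicate 7) to -1.45 (without SEA replicate 4) and was no longer called without CTRL replicate 3, 4 or 7 or SEA replicate 4 or 8. ENSECAT00000015356 ran from -1.85 (without SEA replicate 7) to -1.14 (without SEA replicate 1) and lost it without CTRL replicate 3. ENSECAT00000015430 ran from -1.79 to -1.11 and lost it without CTRL replicate 2, 3, 4, 6 or 7 or SEA replicate 1, 3, 4, 5 or 8. ENSECAT00000021122 ran from -1.42 (without SEA replicate 7, then called) to -0.80, and F3 from -2.71 to -1.84. In MEA minus CTRL, ENSECAT00000015356 ran from -1.34 to -1.02 and ENSECAT00000015430 from -1.37 to -1.06, both lost without CTRL replicate 4 or 6, and ENSECAT00000021122 from -2.11 to -1.58, lost without CTRL replicate 1, 3, 4 or 6 or MEA replicate 5.

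Of the covariation results under alternatives, 238 kept their side of the threshold, 17 lost it, 13 gained it and 2 moved. Of those for the other named transcripts, 1171 kept it, 70 lost it and 16 gained it.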
